A study of Drosophila melanogaster with 12 samples.

Results

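Transpac, Osvaldo and accord are 3 families of LTR retrotransposon in Drosophila melanogaster whose piRNA changed unlike that of most transposable elements (TEs) when klp10A was knocked down in the testis germline. They were chosen by that departure. The rows FBgn0040267_Transpac, FBgn0063755_Osvaldo and FBgn0063447_accord were taken from the tables of antisense and sense piRNA, which hold 123 TEs each, and from the count table of transcripts, which holds 127 TEs beside 15240 genes. The piRNA contrast between the genotypes therefore picked the members, and its values at these 3 elements are given below as a description, without a test. Their transcripts were measured in separate libraries that the choice did not use, and these were tested. The tables list the repeats stellate, stellateHet, suste and mst40 beside the transposons. These are not transposons, but they are counted among the TEs in all ranks, medians and shares below.

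The study asked whether Klp10A, a kinesin that depolymerises microtubules, acts in the piRNA pathway. Testes came from flies aged 0 to 2 days, either wild type or klp10A RNAi, in which the germline driver nos-gal4 expresses a hairpin against klp10A. Each genotype gave 3 small RNA libraries and 3 libraries of rRNA-depleted RNA, 12 libraries together, and 300 pairs of testes went into each. The labels name no strain for the wild type. The knockdown flies carry a driver and a hairpin transgene that flies labelled only as wild type are not stated to carry, so the knockdown, the transgenes and the genetic background cannot be told apart. The RNA is that of whole testes, not of the germ cells in which the driver acts. The methods call the 3 samples of a genotype biological triplicates, and p-values measure the spread between them.

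piRNAs are small RNAs that guide Piwi family proteins to TE transcripts in the germline. Antisense piRNAs are complementary to TE transcripts and can recognise them, and sense piRNAs carry the sequence of the transcript itself. In the ping-pong cycle, a TE transcript cut under the guidance of an antisense piRNA gives a sense piRNA, which in turn leads to new antisense piRNA from complementary precursors. Transpac, Osvaldo and accord all belong to the Ty3/gypsy group, retrotransposons with long terminal repeats that move through an RNA copy. Osvaldo was first described in Drosophila buzzatii. A reference list of named insertions held 0 of Osvaldo, beside 8 of Transpac and 3 of accord. Whether these flies carry insertions of Osvaldo was not analysed here. The LTR of accord is known from an insertion upstream of Cyp6g1, a cytochrome P450 gene linked to insecticide resistance.

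Summed piRNA differed between the genotypes. The normalised antisense values, which the authors scaled by miRNA hairpin reads, summed over TEs to 12838774 to 16473887 in wild type and 25340889 to 27254774 in klp10A RNAi. The count table summed to 18634687 to 25536724 counts per library, with TMM factors (the scaling between RNA libraries) of 0.70 to 1.33. The targeted gene, Klp10A, was counted at 1458, 802 and 1527 in wild type replicates 1 to 3 against 327, 364 and 313 in the knockdown, and it was 5.10-fold lower (edgeR quasi-likelihood test, adjusted p = 0.00105). Every marker fixed for spermatogonia, spermatocytes, spermatids, and hub and cyst cells was counted in both genotypes. Summed after TMM scaling to counts per library size (CPM), the 4 spermatogonia markers were at 42.6 to 44.3 in wild type and 54.9 to 57.9 in klp10A RNAi, and the 6 spermatocyte markers at 55.3 to 64.0 and 75.2 to 78.7, while spermatid and hub and cyst sums overlapped. The part of these shifts in the results below was not tested. Of 28 piRNA pathway genes, 4 passed an adjusted p of 0.1 by edgeR, all of them higher in klp10A RNAi, where 4.12% of all genes tested were higher at that limit.

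In most of the table piRNA was higher after the knockdown. At an adjusted p under 0.1 with a change over 1.5-fold by limma, 65% of TEs were called for antisense piRNA (62.6% higher, 2.44% lower in klp10A RNAi), 77.2% for sense piRNA (75.6% higher, 1.63% lower) and 72.4% for both strands summed. The genotypes did not overlap at 83.7% of TEs for antisense and at 80.5% for sense. Since these contrasts picked the 3 elements, nothing is read from where they fall among these shares.

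Transpac stood out on the sense strand. Its sense piRNA stood at normalised values of 1062, 1532 and 1151 in wild type replicates 1 to 3 and at 6787, 7295 and 5364 in klp10A RNAi replicates 1 to 3. The lowest klp10A RNAi library was thus far above the highest wild type library. The mean moved from 1248 ± 250 to 6482 ± 1001 (SD, n = 3 each), which was 5.21-fold, or 2.38 on the log2 scale with a standard error (SE) of 0.19 and a 95% interval of 1.92 to 2.85. This was the highest sense log2 fold change of the 123 TEs in the deposited values, whose median was 0.85, but Juan was nearly equal at 2.36.

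Antisense piRNA of Transpac behaved differently. It stood at 590, 1077 and 408 in wild type, against 627, 822 and 805 after the knockdown, and all 3 klp10A RNAi libraries lay between the lowest and the highest wild type library. The log2 fold change was 0.23 (SE 0.36, 95% interval -0.67 to 1.12), which ranked 108 from the highest among 123 TEs with a median of 0.79. Its sign was not settled, since it turned to -0.096 without wild type replicate 3 and to -0.63 once libraries were scaled to their summed TE values. Antisense values of Transpac also varied more between replicates than those of most TEs, with a replicate SD of 0.52 on the log2 scale against a median of 0.14.

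Osvaldo had less piRNA after the knockdown on both strands. Its sense piRNA stood at 1571, 1897 and 2317 in wild type, against 823, 842 and 849 after the knockdown. Its antisense piRNA stood at 327, 562 and 505 in wild type, against 198, 262 and 259 after the knockdown. On each strand every klp10A RNAi library was below every wild type library, and the 3 sense values after the knockdown were nearly equal.

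The sense mean of Osvaldo moved from 1928 ± 374 to 838 ± 13.5 (SD, n = 3 each), 2.27-fold lower in klp10A RNAi, with a log2 fold change of -1.18 (SE 0.16, 95% interval -1.57 to -0.80). The antisense mean moved from 465 ± 123 to 240 ± 36.1, 1.90-fold lower, with a log2 fold change of -0.93 (SE 0.24, 95% interval -1.51 to -0.34). Both were the lowest of the 123 TEs, though the I element at -0.91 and invader5 at -0.89 were nearly equal to Osvaldo on the antisense strand. In the deposited values only gypsy8 shared the sign on both strands, with -0.52 for sense and -0.72 for antisense, and Osvaldo alone had all klp10A RNAi libraries below all wild type libraries on both strands. At 89 TEs all klp10A RNAi libraries were above all wild type libraries on both strands.

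accord had far more piRNA reads behind it, and its departure was one of size. On the antisense strand the wild type libraries gave 31767, 27616 and 24687, and the klp10A RNAi libraries 32042, 33283 and 32318. Wild type replicate 1 nearly reached the lowest klp10A RNAi library, so the genotypes were only just apart. On the sense strand the wild type libraries gave 15864, 25036 and 20186, and the klp10A RNAi libraries 34254, 34348 and 27556, again with no overlap.

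The antisense mean of accord moved from 28023 ± 3558 to 32548 ± 652 (SD, n = 3 each), 1.17-fold, with a log2 fold change of 0.22 (SE 0.11, 95% interval -0.044 to 0.49). The sense mean moved from 20362 ± 4589 to 32053 ± 3895, 1.59-fold, with a log2 fold change of 0.67 (SE 0.20, 95% interval 0.19 to 1.15). Among 123 TEs the antisense change ranked 109 and the sense change 88 from the highest. Both signs held only in the deposited scale, as scaling libraries to their summed TE values gave -0.63 for antisense and -0.12 for sense. Below the typical TE the accord change stood in either scale, by 0.56 for antisense and 0.18 for sense in the deposited values. The antisense change lay below the lower quartile of all TEs, 0.48. The sense change lay inside the quartiles of all TEs, 0.63 and 1.08, so on that strand accord was not set apart from most TEs.

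**Figure D1:**
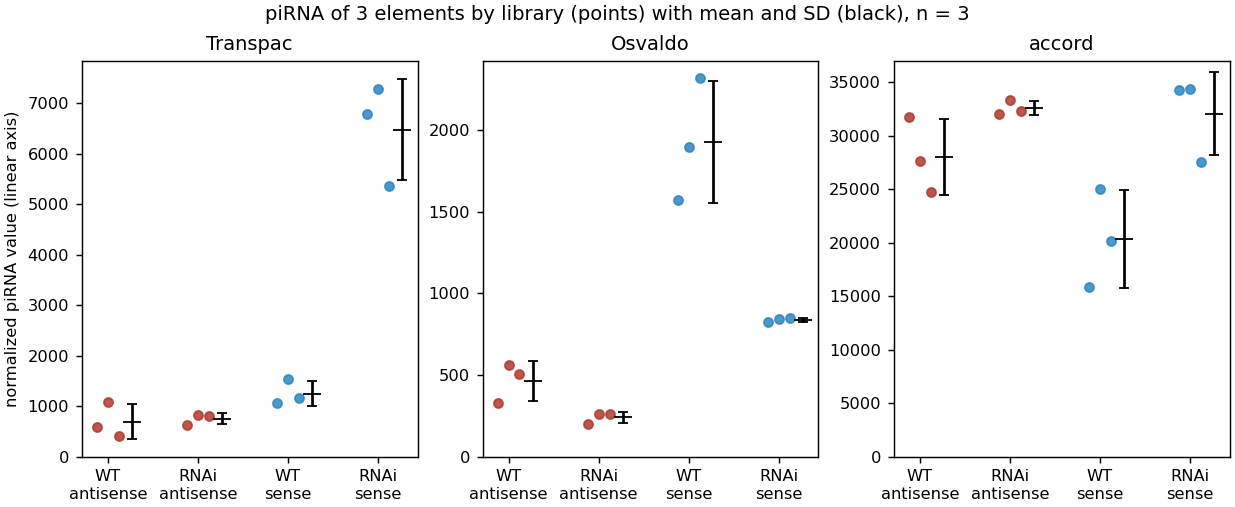
Normalised antisense (red) and sense (blue) piRNA values of Transpac, Osvaldo and accord on linear axes, with 1 point per library, 3 wild type (WT) and 3 klp10A RNAi libraries per strand, and the mean and SD in black. Sense values of Transpac lie between 1062 and 1532 in wild type and between 5364 and 7295 in klp10A RNAi, those of Osvaldo are lower after the knockdown on both strands, and the antisense values of Transpac overlap between the genotypes.

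The sum of both strands put Transpac at rank 3 from the highest and Osvaldo at the lowest of 123 TEs, with accord at rank 100. Total piRNA of Transpac was 3.81-fold higher, from 1940 ± 581 to 7233 ± 986. That of Osvaldo was 2.19-fold lower, from 2393 ± 466 to 1078 ± 49.1. That of accord was 1.34-fold higher, from 48385 ± 3944 to 64600 ± 4147, in the deposited values, and its log2 fold change of 0.42 turned to -0.41 after scaling to the library totals. The median TE had a log2 fold change of 0.81 for total piRNA. An antisense change smaller than 1.5-fold in either direction was seen at 38 TEs, Transpac and accord among them, and 25 of these 38 had sense piRNA higher by more than 1.5-fold.

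**Figure D2:**
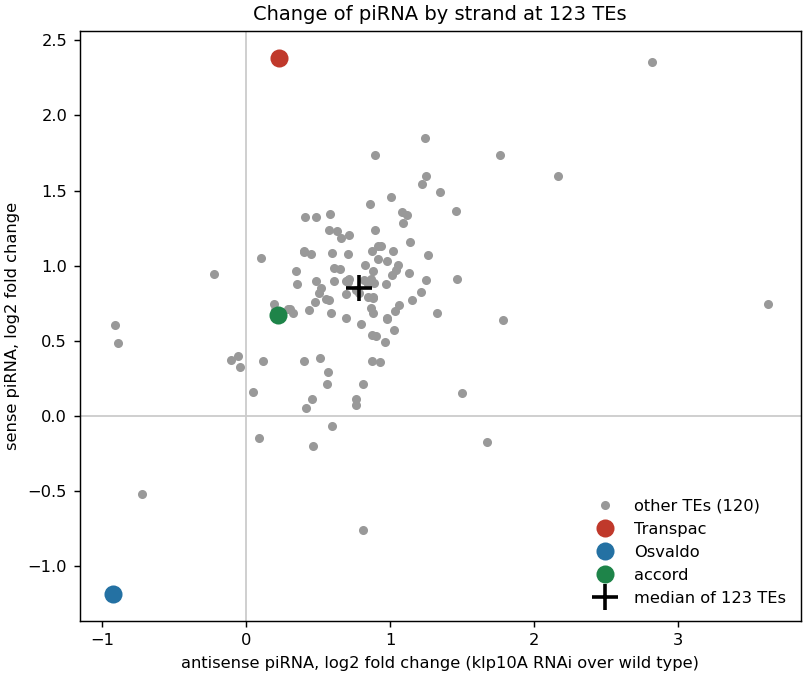
Log2 fold change of antisense piRNA (horizontal) against that of sense piRNA (vertical), klp10A RNAi over wild type, for 123 TEs in the deposited values, with the median TE as a cross at 0.79 and 0.85. Transpac stands at 0.23 and 2.38, Osvaldo at -0.93 and -1.18, and accord at 0.22 and 0.67, where both accord signs and the antisense sign of Transpac turn when libraries are scaled to their totals over TEs.

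As a share of all piRNA on TEs, all 3 elements had a lower mean on the antisense strand, Transpac with overlap between the genotypes. accord made up 0.247%, 0.168% and 0.174% of the antisense sum in wild type, against 0.125%, 0.131% and 0.119% after the knockdown. Transpac made up 0.00460%, 0.00654% and 0.00288% of the antisense sum in wild type, against 0.00245%, 0.00324% and 0.00295% after the knockdown. On the sense strand its share was higher, at 0.0150% to 0.0181% of the sense sum in wild type and 0.0389% to 0.0587% in klp10A RNAi. Osvaldo made up 0.0224% to 0.0302% of the sense sum in wild type and 0.00615% to 0.00677% in klp10A RNAi, and 0.00255% to 0.00357% of the antisense sum against 0.000774% to 0.00103%.

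Few reads stood behind Transpac and Osvaldo. Low values in the tables fall on steps, and 1 read was worth 33.1 to 44.7 in normalised value depending on the library. On that scale the 3 wild type libraries together held about 94 sense reads of Transpac (95% Poisson interval 76.0 to 115) and the 3 klp10A RNAi libraries about 511 (468 to 557). Antisense reads of Transpac numbered about 51 (38.0 to 67.1) and 58 (44.0 to 75.0).

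Osvaldo had about 147 sense reads in wild type (95% Poisson interval 124 to 173) and 65 in klp10A RNAi (50.2 to 82.8). Its antisense reads were about 35 (24.4 to 48.7) and 18 (10.7 to 28.4), and these intervals overlap, so the antisense difference of Osvaldo rests on few reads. accord had about 2118 antisense and 1531 sense reads in wild type, against 2540 and 2528 after the knockdown. These intervals cover counting error only, since PCR copies of a molecule were not marked, and reads that several elements share were divided between them in fractions.

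The strand makeup set Transpac and Osvaldo apart from most TEs before any knockdown. Sense piRNA made up 82.8%, 77.1% and 82.1% of Osvaldo piRNA in wild type replicates 1 to 3, rank 11 from the highest among 123 TEs by its mean. It made up 64.3%, 58.7% and 73.8% of Transpac piRNA, rank 21. The median TE held 33.2% sense piRNA in wild type, and 24 TEs were over 50% sense in all 3 wild type libraries, Transpac and Osvaldo among them. accord, at 33.3%, 47.6% and 45.0%, was closer to the median TE, at rank 51.

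After the knockdown sense piRNA made up a larger part of Transpac piRNA, while the share at Osvaldo hardly moved. For Transpac it was 91.5%, 89.9% and 87.0% in klp10A RNAi, and the mean went from 65.6 ± 7.64% to 89.5 ± 2.32% (SD, n = 3 each). The log2 ratio of sense to antisense at Transpac was 2.16 higher (SE 0.31), the largest increase of 123 TEs, whose median change was 0.12.

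At Osvaldo the sense share was 80.6%, 76.3% and 76.6% in klp10A RNAi, 1 library inside the range of wild type and the other 2 just below it, and the log2 ratio changed by -0.26 (SE 0.19, 95% interval -0.73 to 0.21). At accord the share was 51.7%, 50.8% and 46.0%, where only the highest wild type library, replicate 2 at 47.6%, overlapped. Its mean went from 41.9 ± 7.59% to 49.5 ± 3.04%, and the log2 ratio changed by 0.45 (SE 0.25, 95% interval -0.19 to 1.08). These ratios depend neither on element length nor on the scaling between libraries.

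**Figure D3:**
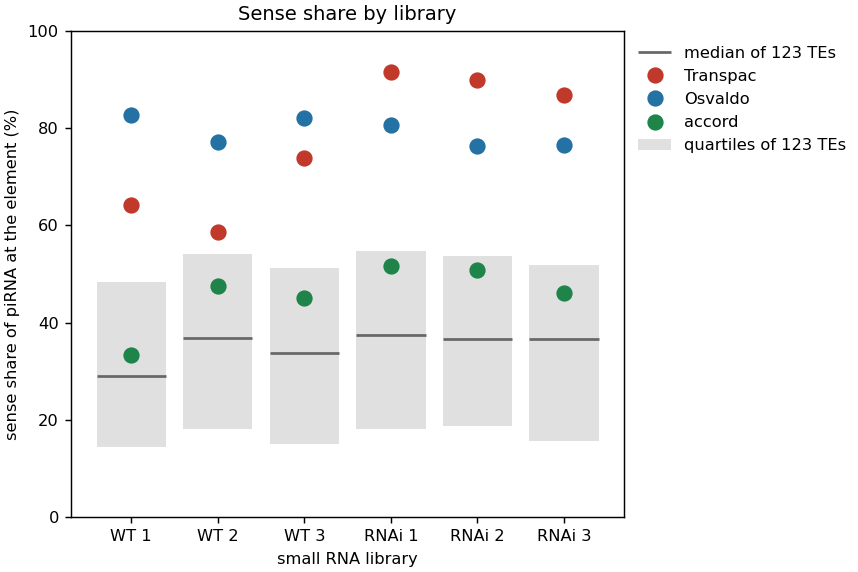
Sense piRNA as a percentage of all piRNA at an element in each of 6 small RNA libraries, with 3 wild type (WT) libraries at the left and 3 klp10A RNAi libraries at the right, the median of 123 TEs as a line and their quartiles as a grey box. Transpac moves from 58.7% to 73.8% up to 87.0% to 91.5%, Osvaldo stays above 76% throughout, and accord lies inside the quartiles in every library.

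The TEs with the most similar small RNA pattern differed between the 3 elements. Likeness was measured as the Euclidean distance over 12 log2 values (6 libraries, 2 strands), each relative to the wild type mean of that TE and strand, among 118 TEs with a mean of at least 100 on each strand. For accord the nearest were Rt1a at 0.41, Tirant at 0.47 and Porto1 at 0.50, against a median distance of 1.44, so its pattern was shared closely by others. For Osvaldo the nearest was gypsy8 at 1.43, followed by jockey, a non-LTR element, at 3.05 and the aurora element at 3.15, against a median of 4.69. For Transpac the nearest were gypsy at 1.88, jockey2 at 2.20 and Fw3 at 2.22, against a median of 3.06.

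Transpac and Osvaldo had no TE as near as the closest ones of accord. These distances use the piRNA values by which the members were chosen, so they are a description only. The distance runs over single libraries and so also holds the spread between replicates. On the antisense strand the replicate SD was 0.52 at Transpac, 0.33 at Osvaldo and 0.13 at accord, and on the sense strand 0.26, 0.20 and 0.27. How much of the larger distances comes from this spread was not tested. The members were no closer to each other, at 3.13 between Transpac and accord, 3.91 between Osvaldo and accord and 6.59 between Osvaldo and Transpac. The gypsy element, nearest to Transpac, had sense piRNA higher by 1.74 on the log2 scale and antisense piRNA higher by 0.89. In the same units accord2, an element with a name like that of accord, changed by 0.05 for sense and 0.42 for antisense.

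The transcripts of the elements addressed whether the departures in piRNA went along with a change in TE RNA. Counts of RNA on each TE family were scaled with TMM (trimmed mean of M-values) and are given as CPM, which puts all libraries on a common depth. Of 126 TEs tested by edgeR, 9.52% were called at an adjusted p under 0.1 with a change over 1.5-fold, 7.94% as lower and 1.59% as higher in klp10A RNAi. Of the 3 elements 1 was called, accord, and it was lower. The median TE had a log2 fold change of -0.14.

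accord transcripts fell. They stood at 216, 108 and 138 CPM in wild type replicates 1 to 3 (4098, 1522 and 2859 counts) and at 71.3, 61.0 and 63.7 CPM in klp10A RNAi replicates 1 to 3 (1769, 1540 and 1528 counts). All klp10A RNAi libraries were below all wild type libraries, as was the case at 20.6% of the TEs tested, and the wild type libraries were far more spread. The mean moved from 154 ± 55.5 to 65.3 ± 5.31 CPM (SD, n = 3 each), 2.36-fold lower, and the log2 fold change was -1.24 (SE 0.25, 95% interval -1.81 to -0.66, edgeR adjusted p = 0.0244), the rank 121 of 126 from the highest. In bulk tissue, fewer cells that express the element and less of its RNA per cell cannot be told apart.

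The call at accord was close to its limit. It was lost without klp10A RNAi replicate 1 (edgeR adjusted p = 0.105), replicate 2 (0.105) or replicate 3 (0.121), with log2 fold changes of -1.29, -1.19 and -1.21. Without wild type replicate 1, the library highest in accord, it was -0.91 with an edgeR adjusted p of 0.0316. Over all alternatives the adjusted p ranged from 0.000135 to 0.121, and the sign held in each.

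Summed markers of other tissues were lower on average in klp10A RNAi, as accord was, though the genotypes overlapped for the accessory gland. Each of the 4 midgut markers (the digestive enzyme genes alphaTry, betaTry, Jon65Aiv and Mal-A1) was counted in both genotypes. They summed to 126, 8.53 and 50.6 CPM in wild type, against 0.97, 0.71 and 1.13 CPM after the knockdown. The wild type libraries stood in the same order as for accord in the midgut and accessory gland sums. That order was also seen for Transpac transcripts, which were not called, at 691, 416 and 587 CPM in wild type replicates 1 to 3. In the ejaculatory duct and bulb sums and in the fat body sums the wild type libraries stood in other orders. The 5 accessory gland markers summed to 2806, 1382 and 2108 CPM in wild type and 1268 to 1557 CPM in klp10A RNAi. The 3 ejaculatory duct and bulb markers summed to 592, 722 and 558 CPM in wild type and 445 to 537 CPM in klp10A RNAi. The 5 fat body markers summed to 6.16, 10.2 and 10.7 CPM in wild type and 3.99 to 5.17 CPM in klp10A RNAi. Among them Fbp1, a larval serum protein receptor of the fat body, was at 0 in all wild type libraries and was counted in klp10A RNAi. By single genes, the median log2 fold change of the markers tested was -6.10 for midgut (3 of 4 markers tested) and -0.61 for accessory gland (5 of 5). It was -0.58 for fat body (2 of 5) and 0.05 for ejaculatory duct and bulb (3 of 3). The part of these tissues in the accord result was not tested.

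Cyp6g1, the P450 gene with a known accord insertion upstream, was looked at after its values had been seen. It stood at 49.6, 72.1 and 48.9 CPM in wild type, against 13.1, 13.3 and 19.2 CPM after the knockdown. It was 3.73-fold lower (log2 fold change -1.90, SE 0.22, edgeR adjusted p = 0.00292). Its wild type libraries were not ordered as those of accord, since replicate 2 was highest in Cyp6g1 and lowest in accord. Whether these flies carry that insertion was not analysed here.

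Transpac transcripts did not pass the test. They stood at 691, 416 and 587 CPM in wild type, against 441, 600 and 447 CPM after the knockdown, with the ranges of the genotypes largely overlapping. The means were 565 ± 139 and 496 ± 90.2 CPM (SD, n = 3 each), and the log2 fold change was -0.19 (SE 0.24, 95% interval -0.73 to 0.36, edgeR adjusted p = 0.630). A change of the size of its sense piRNA in either direction lies outside this interval.

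Osvaldo transcripts did not pass the test either, and they were few. They stood at 6.52, 6.40 and 5.06 CPM in wild type (124, 90 and 105 counts), against 5.84, 4.72 and 6.05 CPM after the knockdown (145, 119 and 145 counts). The means were 5.99 ± 0.81 and 5.54 ± 0.72 CPM (SD, n = 3 each), and the log2 fold change was -0.11 (SE 0.17, 95% interval -0.51 to 0.28, edgeR adjusted p = 0.698). The interval does not reach the log2 fold change of -1.18 of its sense piRNA. With total counts in place of TMM the values of Transpac and Osvaldo turned to 0.25 and 0.41, against a shift of the median gene from 0.01 to 0.50.

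**Figure D4:**
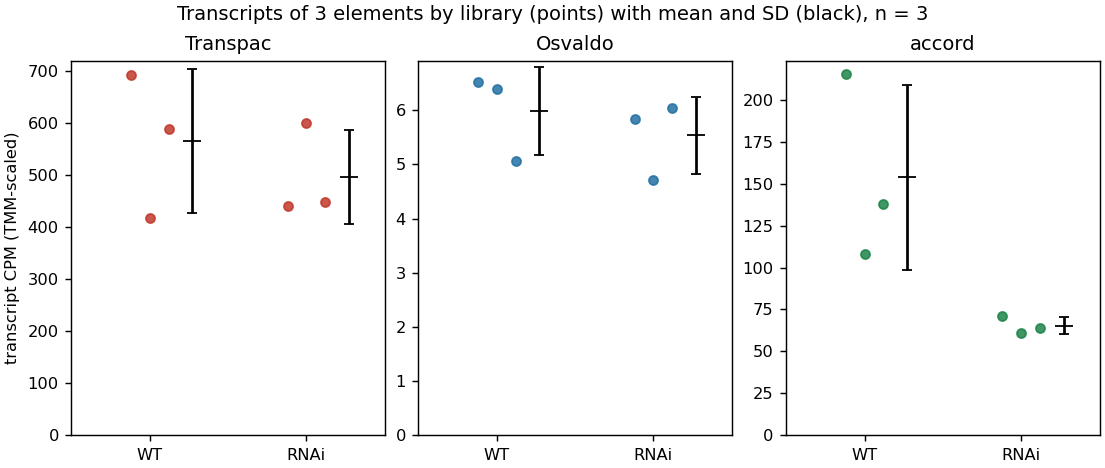
Transcript level in CPM after TMM scaling for Transpac, Osvaldo and accord on linear axes from 0, with 1 point per library, 3 wild type (WT) and 3 klp10A RNAi libraries, and the mean and SD in black. The klp10A RNAi libraries of accord lie at 61.0 to 71.3, below its wild type libraries at 108 to 216, and the genotypes overlap at Transpac and Osvaldo.

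Set side by side, the 3 elements showed 3 combinations of piRNA and transcript. Transpac had sense piRNA higher by 2.38 on the log2 scale beside a transcript change of -0.19. Osvaldo had sense piRNA lower, at -1.18, beside a transcript change of -0.11. accord had a sense piRNA change of 0.67, which turned with the scaling to library totals, beside transcripts that fell by 1.24. Counts on a TE family may hold RNA of both strands, since the strand setting of the counting is not given in the sources used here.

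The amount of piRNA relative to transcript placed Transpac at the bottom of the table. Total piRNA value divided by transcript CPM, which leaves element length out, was 3.43 for Transpac in wild type, the lowest of 123 TEs, whose median was 241 with quartiles of 77.7 and 647. The next lowest in wild type were jockey at 4.03, the foldback element FB at 5.75 and copia, an LTR element of another group, at 7.52. In klp10A RNAi the value of Transpac was 14.6, or 4.25 times its wild type value, and its rank from the highest was 121, so it remained among the lowest while the median went to 452.

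Osvaldo and accord lay in the middle range. Osvaldo went from 399 to 195 normalised piRNA per CPM, from rank 42 to rank 82 of 123, and accord from 314 to 989, from rank 52 to rank 41. These ratios join libraries of different kinds, and the piRNA part of each was used in choosing the members, so they are a description.

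**Figure D5:**
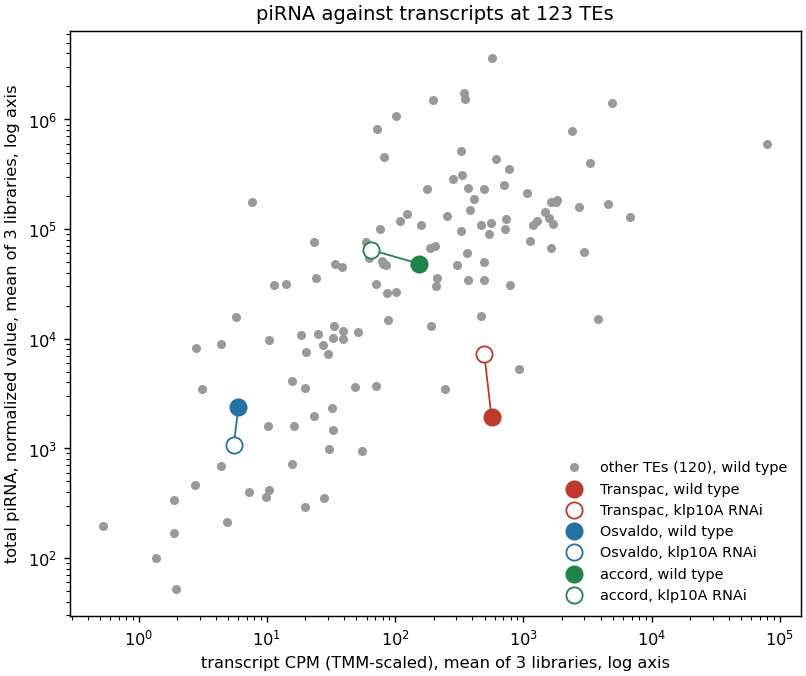
Total piRNA (antisense plus sense, normalised value, log axis) against transcript level (CPM after TMM scaling, log axis), mean of 3 libraries, with 123 TEs in wild type as grey or filled points and the klp10A RNAi values of Transpac, Osvaldo and accord as open points. Transpac moves up from 1940 to 7233 beside 565 and 496 CPM, Osvaldo moves down from 2393 to 1078, and accord moves to the left from 154 to 65.3 CPM.

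The Ty3/gypsy group, to which the 3 elements belong, had medians close to those of all TEs. Of 53 families on the list, 49 were matched in the tables. In the deposited values 35 of the 49 were called higher for sense piRNA and 1 lower, beside 75.6% and 1.63% of all TEs. For antisense piRNA 34 of the 49 were higher and 2 lower, beside 62.6% and 2.44% of all TEs. The median log2 fold change of the list was 0.82 for sense and 0.79 for antisense, beside 0.85 and 0.79 over all TEs, and the members are part of these counts.

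In transcripts, 1 of the 49 rose, 4 fell and 44 were not called by edgeR, close to the 1.59% higher and 7.94% lower of all TEs tested, and the median log2 fold change of the list was -0.12. The 4 that fell were accord, gypsy8 (-0.65, adjusted p = 0.0709), Tirant (-0.64, adjusted p = 0.0568) and ZAM (-0.62, adjusted p = 0.0551), the last of these an element known for its activity in somatic cells of the ovary. Stalker3 rose by 1.07 (adjusted p = 0.0383). accord thus had the lowest transcript change of the list.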

How the data were processed

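Small RNA and rRNA-depleted RNA of testes were sequenced from 6 libraries each. For small RNA, the authors removed rRNA and miRNA hairpin reads and aligned the rest to the Drosophila melanogaster transcriptome. They selected piRNA reads by length and estimated abundance with eXpress at genes, piRNA clusters and TEs. The deposited values are per TE and strand, and miRNA hairpin reads were used to normalise the libraries. The deposited piRNA values are whole numbers on a scale the sources used here do not state, and were treated as a score, not as counts. For RNA, the authors aligned reads with STAR 2.6.0a to build dm3 and counted genes and TE families with TEtranscripts, and the deposited table holds these counts. Bowtie2 2.2.3 and Trimmomatic 0.27 are also named in the submitters' processing notes.

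piRNA changes were fitted on log2(value + 1) over all 123 TEs with limma 3.58.1, and read as a description at the members. Counts were tested with the edgeR 4.0.16 quasi-likelihood F-test in R 4.3.3, with TMM and filterByExpr, and Benjamini-Hochberg adjustment over 11974 genes and 126 TEs. TEs were called at an adjusted p under 0.1 and a change over 1.5-fold. The value of 1 read was found from the spacing of low values. Between 46.2% and 64.7% of low values fell within 1 unit of a multiple of it. A step fixed in advance would give 4.47% to 6.04% on a continuous scale. The step used was the best of a range tried on these same values, so its share by chance is higher and was not computed. The read numbers are therefore estimates. A value of 0 would allow up to 3 reads, or 99.3 to 134.1. Scripts were tested on simulated data.

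The text names the members, Klp10A, the 3 TEs nearest to each member in small RNA pattern and the Ty3/gypsy elements called in transcripts. Other names (accord2, FB, copia, the I element, invader5, Juan, Cyp6g1) were picked with their values in view. The members and lists were chosen with earlier results of these data known. The families Bica, invader6, nomad and qbert of the Ty3/gypsy list could not be matched. Alternatives were another pseudocount, scaling to library totals or medians, a minimum level, a replicate block, DESeq2 1.42.0 and its size factors, other filters and leaving out each replicate. Total counts in place of TMM were added after seeing the data.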

Additional observations from a re-analysis of the deposited data

How the results depend on the processing

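Between-library scaling of small RNA was the choice that mattered most. Scaling to the library total over TEs and centring on the library median gave, for antisense piRNA, log2 fold changes of -0.63 and -0.54 at Transpac, -1.78 and -1.69 at Osvaldo and -0.63 and -0.54 at accord. For sense piRNA they gave 1.59 and 1.60 at Transpac, -1.97 and -1.96 at Osvaldo and -0.12 and -0.11 at accord, and for total piRNA 1.10 and 1.29, -1.96 and -1.77, and -0.41 and -0.22. Both remove the shift shared by most TEs, and the TEs past the threshold then numbered 17 and 14 for antisense, 16 and 16 for sense and 18 and 18 for total piRNA, from 80, 95 and 89. The log2 sense to antisense ratio of the 3 elements moved by less than the replicate SD in 8 of 8 alternatives each. Leaving out each replicate gave -0.096 to 0.60 for antisense and 2.27 to 2.54 for sense piRNA at Transpac, -1.16 to -0.77 and -1.32 to -1.04 at Osvaldo, and 0.14 to 0.32 and 0.50 to 0.83 at accord.

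For transcripts, total counts in place of TMM moved the median gene to 0.50 and gave 0.25 at Transpac (edgeR adjusted p = 0.588), 0.41 at Osvaldo (0.312) and -0.74 at accord (0.0969). accord missed an adjusted p limit of 0.01 in the reported fit, with -1.24, and it stayed between -1.43 and -0.91 when each replicate was left out. The 3 settings without a klp10A RNAi replicate missed the limit of 0.1. The 3 settings without a wild type replicate, equal to them in sample number, passed it (edgeR adjusted p = 0.0316, 0.00360 and 0.0567). The DESeq2 Wald test gave -1.23 at accord (adjusted p = 0.000135). The number of TEs called was 12 as reported, 13 by DESeq2, 24 with total counts (19 higher, 5 lower) and 0 by edgeR at an adjusted p under 0.01, where 28 had an unadjusted p under 0.05. Leaving out each replicate gave 0 to 12, with 0 where klp10A RNAi replicate 1 was missing (19 had an unadjusted p under 0.05), 5 without replicate 2 and 1 without replicate 3. Same-numbered libraries did not deviate together, with correlations of -0.18, 0.43 and -0.20 for antisense piRNA, -0.088, 0.24 and 0.096 for sense piRNA and -0.28, -0.38 and -0.085 for transcripts, so the numbers were not taken as pairs. A replicate block gave 2 TEs called and -1.18 at accord (edgeR adjusted p = 0.0617). Low read numbers limit Transpac and Osvaldo piRNA, most of all the antisense values.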
